A study of Homo sapiens with 4 samples.

Results

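Complement, fibrinogen and hepatic acute-phase genes were examined in A549 cells that overexpressed the deubiquitinase USP12 and in control A549 cells. The 9 genes were taken by name from 50868 genes in the count files, and they were C3, CFB, C1R, C1S, SERPINA1, FGA, FGB, FGG and AHSG. A549 is an established human lung adenocarcinoma line. RNA was sequenced from 2 libraries labelled control and 2 labelled USP12-overexpressed, with no other agent named. The methods describe tagged human USP12 in pLVX vectors but do not say which tag these cells carried, and the control cells are described as vector controls. The comparison concerns forced expression in 1 line. Whether the 2 libraries of a group came from separate cultures is not said, so the p-values measure the spread between these libraries, which may be technical.

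Most plasma complement and fibrinogen is made by hepatocytes and secreted into blood, and lung epithelial cells and lung tumours make part of the same set. In the complement cascade, the proteases C1r and C1s start the classical pathway, C3 is the hub on which all routes meet, and factor B joins activated C3 to form the amplifying convertase of the alternative pathway. Fibrinogen is assembled from Aα, Bβ and γ chains, encoded by FGA, FGB and FGG in 1 gene cluster, and thrombin turns it into fibrin. SERPINA1 encodes α1-antitrypsin, the main inhibitor of neutrophil elastase. AHSG encodes fetuin-A, a liver glycoprotein that falls in plasma during inflammation, whereas the others rise. In hepatocytes, interleukin-6 acting through STAT3 and interleukin-1 acting through NF-κB and C/EBP factors drive this acute-phase response.

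The libraries held between 14280081 and 16305356 counts. Levels are given as CPM, the depth-scaled count with TMM factors, and 3 counts corresponded to between 0.166 and 0.227 CPM, a limit that covers counting error only. USP12 itself had 15.2 and 34.4 CPM in control replicates 1 and 2, and 1745 and 2235 CPM in USP12 replicates 1 and 2. The control libraries stood further apart (SD of the log2 ratio across genes 1.32) than the USP12 libraries (0.62), and in the headings the date-like code of control replicate 1 was unlike that of the other 3. With 1 library under that code, the code and the library cannot be told apart. For the members, values against single control libraries are therefore given where they differ. Of 10 hepatocyte markers, 6 were under 10 counts in every library, and ALB had at most 2 counts. Of 10 macrophage markers, 7 were under 10 counts in every library, with TYROBP, FCER1G and C1QA at 0. Their summed level was 112 and 53.3 CPM in the controls and 77.0 and 60.1 CPM in the USP12 libraries, nearly all of it from CD68 and CD14. The 7 fibroblast markers summed to 18.0 and 3.21 CPM in the controls and to 21.2 and 17.1 CPM with USP12. The 5 epithelial markers, led by KRT8 and KRT18, summed to 9638 and 5060 CPM in the controls and to 4275 and 3976 CPM with USP12, and their part in the results was not tested. Of 6 alveolar markers, 5 were under 10 counts in every library, among them NKX2-1 and the surfactant genes.

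The level of each of the 9 genes was lower in both USP12 libraries than in both control libraries, a pattern that 17% of the 15222 tested genes showed. A gene was called lower when its unadjusted p was 0.05 or less and its log2 fold change was -1 or lower in edgeR's quasi-likelihood test. By that rule 7 of the 9 genes were called lower, against 4.41% of the tested genes, and C1S and FGA were not. The 9 genes, and the gene lists used below, were chosen with earlier results of these data known. Their shares and medians beside those of all tested genes are therefore descriptions and not tests of enrichment. No gene in the table, and so none of the 9, had a Benjamini-Hochberg adjusted p under 0.05 (0 of 15222, 0%), while 1155 genes had an unadjusted p under 0.05. At that adjusted threshold the edgeR exact test called 429 genes and DESeq2 406, and each of them called 5 of the 9. The quasi-likelihood test itself called 6 of the 9 without a filter on low counts, where it called 528 of 24800 genes. The median log2 fold change of the 9 genes was -2.14, beside -0.06 over all genes tested. All 9 passed the filter on low counts, AHSG only through the control libraries. RNA was taken from whole cultures, so fewer cells that make a transcript and less transcript per cell cannot be told apart.

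**Figure D1:**
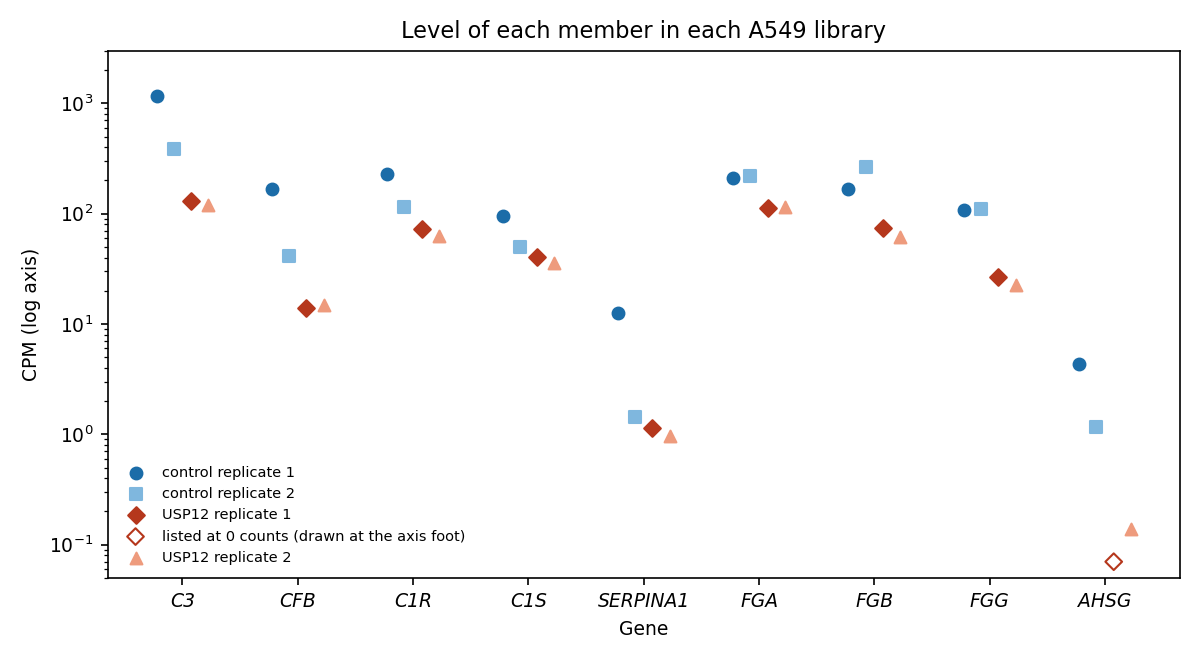
Level of the 9 genes in each library, in CPM on a log axis, with 1 point per library and an open symbol where the count was 0. Both USP12 libraries lay below both control libraries for each gene, and control replicate 1 stood well above control replicate 2 for C3, CFB, SERPINA1 and AHSG.

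C3 (ENSG00000125730, chromosome 19 of GRCh38, 6677704 to 6730562, minus strand), the central complement component, had 15455 and 6979 counts in control replicates 1 and 2 and 1822 and 1747 counts in USP12 replicates 1 and 2. In CPM these were 1169 and 387 for the controls against 131 and 121 with USP12. C3 shares part of its locus with GPR108 on the same strand, which had 1651 and 903 counts in the controls and 739 and 860 counts with USP12. For C3 the USP12 libraries were close to each other and both lay under the lower control. On the log2 scale C3 changed by -2.63 ± 0.58 (standard error; adjusted p = 0.280 by the quasi-likelihood test of edgeR), a level 6.17-fold lower. Against control replicate 1 alone the log2 difference was -3.21 and against control replicate 2 alone -1.62.

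CFB (ENSG00000243649, chromosome 6, 31945650 to 31952086, plus strand), which encodes the protease subunit of the alternative pathway convertase, was likewise highest in control replicate 1. Its levels were 169 and 41.0 CPM in the controls and 13.96 and 14.89 CPM with USP12. For CFB the log2 change was -2.86 (standard error 0.71, adjusted p = 0.322). Here too the controls differed by more than the USP12 libraries did, with 2236 counts against 740. The log2 difference was -3.54 from control replicate 1 alone and -1.499 from control replicate 2 alone. CFB overlaps C2 on its own strand and a gene model that spans both, and that model had at most 12 counts in any library.

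C1R (ENSG00000159403, chromosome 12, 7080214 to 7092540, minus strand), the protease that activates C1s, had 229 and 116 CPM in the controls and 72.9 and 62.9 CPM with USP12. The C1R change of -1.35 ± 0.45 (standard error; adjusted p = 0.496) was called lower with all 4 libraries. The call was lost without control replicate 1 (-0.77), without USP12 replicate 1 (-1.46) and without USP12 replicate 2 (-1.24). C1S (ENSG00000182326, chromosome 12, 6988259 to 7071032, plus strand), the protease that cuts C4 and C2, had 95.6 and 49.5 CPM in the controls and 40.3 and 35.9 CPM with USP12. The groups did not overlap, but the change of -0.93 ± 0.45 (standard error; adjusted p = 0.764) did not pass. It passed without control replicate 2 (-1.32), and was -0.38 without control replicate 1. C1S overlaps LPCAT3 on the opposite strand, and although the kit was stranded, whether counting used strand is not stated. LPCAT3 itself was called lower (log2 fold change -1.08), so the reads of C1S and LPCAT3 cannot be fully told apart.

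The fibrinogen genes were the members on which the control libraries came closest. FGA (ENSG00000171560, chromosome 4, 154583126 to 154590742, minus strand), for the Aα chain, had 211 and 221 CPM in the controls and 112 and 115 CPM with USP12. Within each group the values of FGA were almost the same. FGA differed by -0.93 ± 0.33 (standard error; adjusted p = 0.551) on the log2 scale, just short of the fold that a call needs although the unadjusted p was 0.0301. FGB (ENSG00000171564, chromosome 4, 154563011 to 154572807, plus strand), for the Bβ chain, had 167 and 266 CPM in the controls and 74.3 and 61.8 CPM with USP12. Control replicate 2 was the higher control for FGB, the reverse of C3. FGB changed by -1.67 ± 0.40 (standard error; adjusted p = 0.306). The call for FGB was lost without USP12 replicate 1 (-1.81) or USP12 replicate 2 (-1.55). FGG (ENSG00000171557, chromosome 4, 154604134 to 154612967, minus strand), for the γ chain, had 108 and 110 CPM in the controls and 26.8 and 22.6 CPM with USP12. It had the smallest adjusted p of the 9 genes, with a change of -2.14 ± 0.37 (standard error; adjusted p = 0.199, edgeR). FGG was -2.13 against control replicate 1 alone and -2.15 against control replicate 2 alone. Its call was lost without USP12 replicate 2 (-2.02).

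The promoters of the 3 fibrinogen genes are shown because the genes stand side by side and were all lower, and that of CFB because its log2 change was the lowest of the complement genes among the 9. Each run is 300 bases from RefSeq on GRCh38.p14, from 250 bases before to 50 bases after the annotated start, written along the strand of the gene. Promoter sequences were matched for 7 of the 9 genes, with none for C3 and C1S. Capitals mark matches, on either strand, to CTGGGAA (the core of the interleukin-6 response element), TTCNNNGAA (the STAT palindrome) or TTGCNNAA (a C/EBP core). FGB has 2 annotated starts, and the upstream one is shown.
FGA, chr4:154590693-154590992, minus strand: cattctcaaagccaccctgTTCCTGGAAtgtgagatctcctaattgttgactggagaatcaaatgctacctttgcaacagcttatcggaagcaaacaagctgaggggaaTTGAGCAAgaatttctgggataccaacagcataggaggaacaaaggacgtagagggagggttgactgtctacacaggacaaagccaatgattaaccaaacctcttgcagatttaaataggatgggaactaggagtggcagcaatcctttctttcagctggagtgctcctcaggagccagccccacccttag
FGB, chr4:154562730-154563029, plus strand: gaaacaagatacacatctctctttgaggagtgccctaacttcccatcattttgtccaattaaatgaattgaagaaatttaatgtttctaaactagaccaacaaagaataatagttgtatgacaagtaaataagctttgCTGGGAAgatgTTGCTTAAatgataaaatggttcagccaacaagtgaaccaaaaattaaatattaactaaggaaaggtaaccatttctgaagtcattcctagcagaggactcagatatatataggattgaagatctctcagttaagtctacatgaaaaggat
FGG, chr4:154612607-154612906, minus strand: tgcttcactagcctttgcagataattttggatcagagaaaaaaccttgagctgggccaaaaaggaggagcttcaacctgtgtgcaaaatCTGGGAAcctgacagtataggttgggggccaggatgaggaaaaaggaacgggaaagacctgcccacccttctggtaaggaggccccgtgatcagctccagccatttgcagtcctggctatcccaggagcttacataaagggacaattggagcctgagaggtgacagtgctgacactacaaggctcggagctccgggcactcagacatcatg
CFB, chr6:31945845-31946144, plus strand: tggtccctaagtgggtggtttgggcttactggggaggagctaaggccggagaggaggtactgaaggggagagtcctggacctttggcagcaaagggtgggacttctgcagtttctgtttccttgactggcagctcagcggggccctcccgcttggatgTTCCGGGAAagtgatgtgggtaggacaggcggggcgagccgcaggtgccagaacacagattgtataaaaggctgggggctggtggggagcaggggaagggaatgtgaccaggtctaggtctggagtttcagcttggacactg

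Counted from the first transcribed base as position 0, CTGGGAA began at -112 in FGB and at -161 in FGG, and this core was present in 10.8% of 35116 RefSeq promoter windows. The C/EBP core began at -141 in FGA and at -101 in FGB (10.5% of windows). The STAT palindrome began at -231 in FGA and at -92 in CFB (7.66% of windows). A κB consensus of 10 letters was searched as a pattern on both strands and is not capitalised above. It matched once in CFB, from -112 to -103, and 11.3% of windows held a match. No match to these motifs was present in either SERPINA1 window. Outside the 4 printed windows, AHSG had a C/EBP core at -59 and CTGGGAA, on the other strand, at 6. The first C1R window held the STAT palindrome at -86 and the C/EBP core at -167, and the second held a C/EBP core at -106. These are matches of letters only.

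SERPINA1 (ENSG00000197249, chromosome 14, 94376747 to 94390693, minus strand), the gene of α1-antitrypsin, was high in 1 library only. It had 167 counts in control replicate 1, 26 in control replicate 2, and 16 and 14 in the USP12 libraries. The levels were 12.6 and 1.44 CPM in the controls and 1.15 and 0.970 CPM with USP12. Although the log2 change was -2.72 ± 1.07 (standard error; adjusted p = 0.626), it rested on control replicate 1, without which it was -0.44. Its call was also lost without USP12 replicate 1 (-2.85) or USP12 replicate 2 (-2.58). AHSG (ENSG00000145192, chromosome 3, 186613060 to 186621318, plus strand), the gene of fetuin-A, had 57 and 21 counts in the controls and 0 and 2 counts with USP12. Over both libraries of a group, its level in the controls was 35.3 times that with USP12, with an exact 95% interval from 9.46 to 297 that covers counting error only. The same ratio was 61.1 (16.2 to 517) against control replicate 1 alone and 16.5 (4.03 to 145) against control replicate 2 alone. The adjusted p was 0.348. The fitted log2 change of AHSG, -5.12 with all libraries, was -3.90 without control replicate 1, -5.76 without control replicate 2 and -4.22 without USP12 replicate 1. Without USP12 replicate 2 it was -8.35, where the remaining USP12 library was at 0 and the value depends on the prior count. HRG-AS1, on the opposite strand of AHSG, had at most 7 counts.

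**Figure D2:**
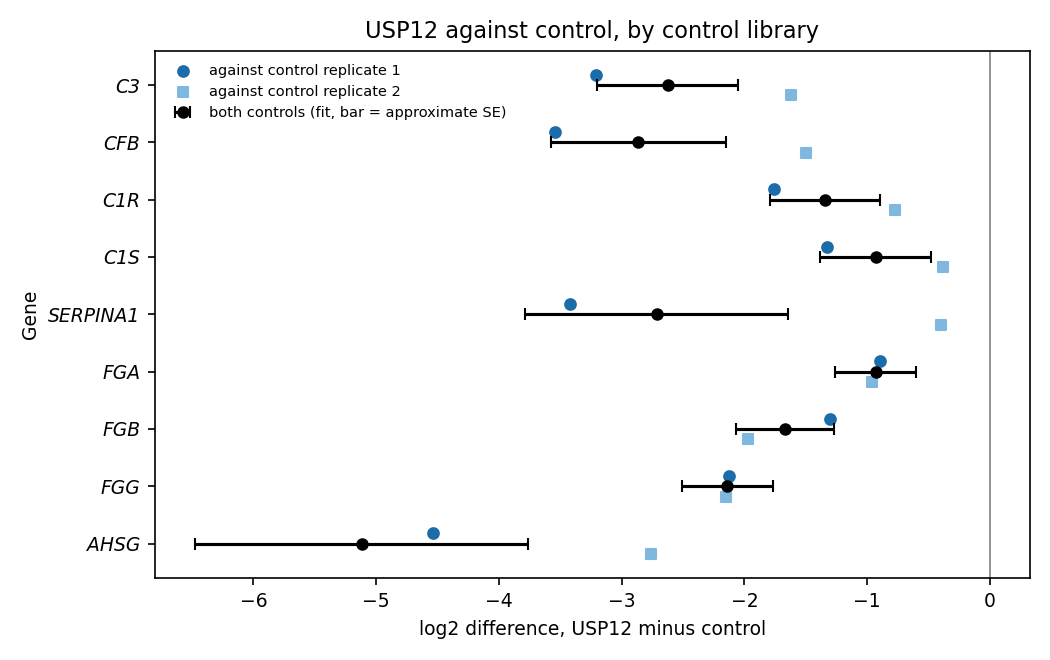
Log2 difference between USP12 and control for the 9 genes, from the fit of both controls (black, bars show the approximate standard error) and from the mean of the USP12 libraries against each control library alone. FGA and FGG gave nearly the same difference against either control, whereas SERPINA1 went from -3.42 against control replicate 1 to -0.40 against control replicate 2.

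The 9 genes showed 2 patterns between the control libraries themselves. C3, CFB, C1R, C1S, SERPINA1 and AHSG were higher in control replicate 1 than in control replicate 2, by log2 differences from 0.95 for C1S to 3.02 for SERPINA1. For CFB that difference was 2.04 and for C3 1.60. The fibrinogen genes were not, at -0.07 for FGA, -0.03 for FGG and -0.67 for FGB. Between the USP12 libraries, the difference was at most 0.27 in size for 8 of the genes, and it was -1.02 for AHSG at 0 and 2 counts. Together the 4 complement genes summed to 1663 and 593 CPM in the controls and 258 and 235 CPM with USP12. The 3 fibrinogen genes summed to 487 and 597 CPM in the controls and 213 and 199 CPM with USP12. In control replicate 1 the complement sum was the larger one, and in control replicate 2 the sums were almost equal.

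**Figure D3:**
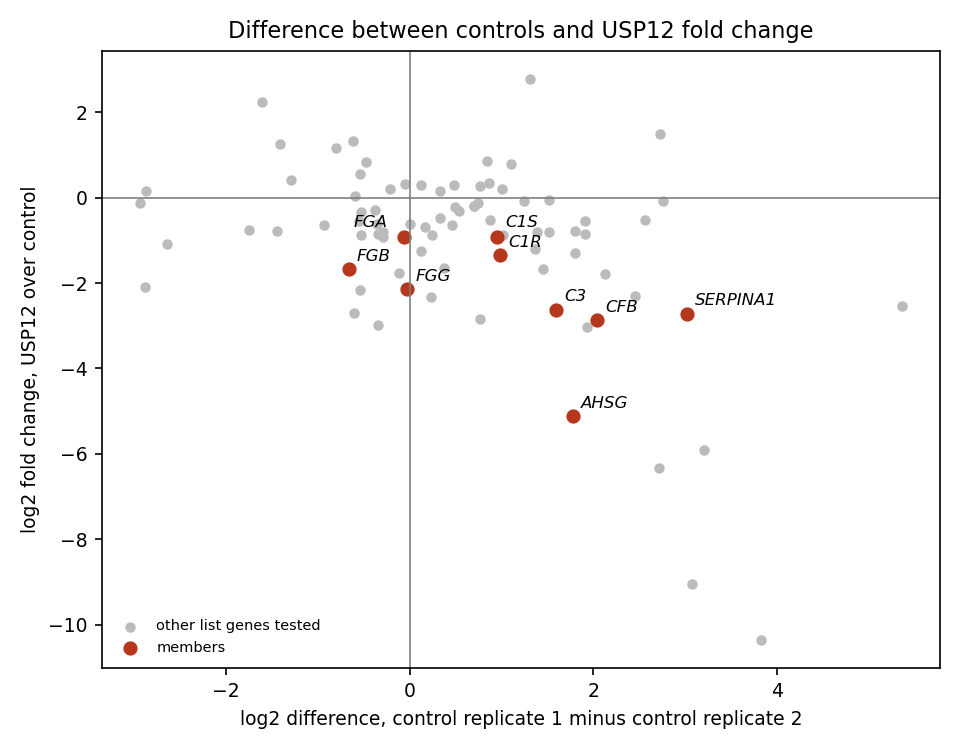
Log2 fold change of USP12 over control (vertical) against the log2 difference between control replicates 1 and 2 (horizontal), for the 9 genes in red and the other tested genes of the pathway lists in grey. The fibrinogen genes lie at or left of 0 and the other 6 lie right of 0. The 2 lowest grey points are SAA1 and SAA2, whose counts were 0 with USP12 and whose fitted values depend on the prior count.

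Levels were compared between genes as CPM per kilobase of the canonical transcript of GENCODE release 44. On that scale C3 was the highest of the 9 in control replicate 1 (224 CPM per kilobase) and FGA in both USP12 libraries (50.8 and 51.9). In control replicate 2, FGA had 100.04 CPM per kilobase, C3 73.9 and FGB 73.1, but FGB came first when the length of all exons was used in place of the canonical transcript. Neighbours in the order are therefore not ranked here. SERPINA1 and AHSG were the lowest pair in every library, with at most 4.20 CPM per kilobase.

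Ratios between partner transcripts within a library do not depend on how libraries are scaled. The ratio of FGA to FGG per kilobase was 1.83 and 1.88 in the controls, against 3.92 and 4.74 with USP12. On the log2 scale this ratio was higher by 1.22 with USP12, while the controls differed by 0.04 and the USP12 libraries by 0.27. The γ chain transcript was thus lower relative to the Aα transcript in both USP12 libraries. FGB to FGG was 0.882 and 1.37 in the controls and 1.57 and 1.55 with USP12, a shift of 0.51 that was smaller than the 0.64 between the controls. The ratio of C1R to C1S was 2.58 and 2.53 in the controls and 1.95 and 1.89 with USP12, a log2 shift of -0.41 with ranges of 0.03 and 0.05 within the groups. For C3 to CFB, the groups overlapped (3.27 and 4.46 against 4.45 and 3.85). With 2 libraries against 2, a two-sided exact permutation test cannot give a p below 0.333, which is the value it gave for the ratios that did not overlap.

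**Figure D4:**
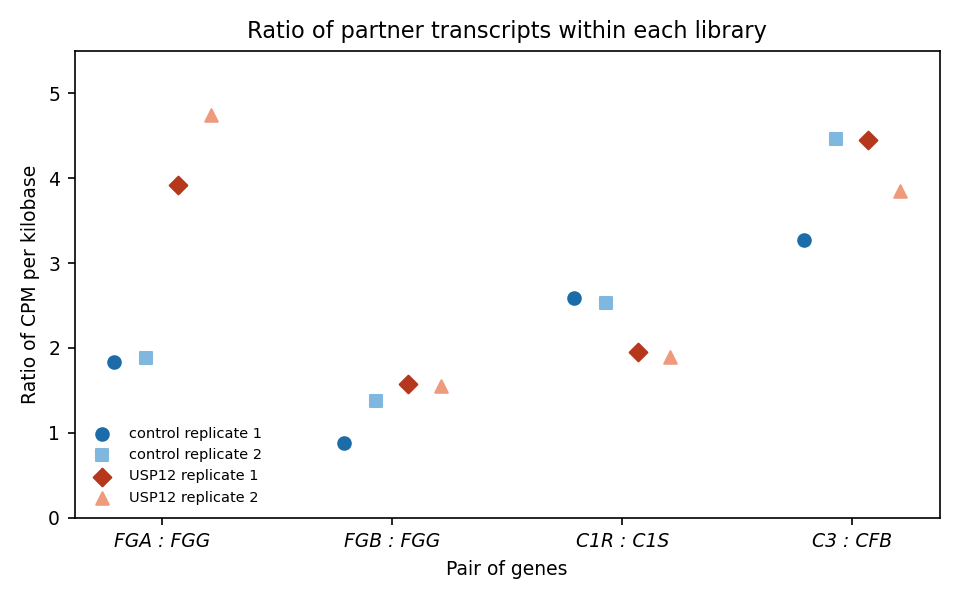
Ratio of CPM per kilobase between partner transcripts, with 1 point per library. FGA to FGG was 1.83 and 1.88 in the controls and 3.92 and 4.74 with USP12, C1R to C1S was lower with USP12, and C3 to CFB overlapped between the groups.

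Much of the rest of the complement system was at low counts. Of 16 genes of the classical and lectin pathways, 11 were under 10 counts in every library, among them C1QA, C1QB, C1QC and MBL2. Of the 5 tested, which include C1R and C1S of the 9 genes above, 2 were called lower, against 4.41% of all tested genes. They were C1R and the collectin gene COLEC11 (log2 fold change -2.17, from 1.66 and 2.49 CPM to 0.360 and 0.554 CPM). COLEC11, the only call in this list outside the 9 genes, passed the filter on low counts only through the control libraries, where it was higher. The call for COLEC11 was lost without control replicate 2 (-1.83), USP12 replicate 1 (-1.89) or USP12 replicate 2 (-2.51). C2, which lies beside CFB, had 100 and 23 counts in the controls and 9 and 16 counts with USP12 (log2 fold change -2.31, not called). C2 did pass without a filter (-2.28), with the DESeq2 Wald test (-2.36), with the exact test (-2.31) and without control replicate 2 (-3.08), and was -0.53 without control replicate 1. Of 11 genes of the alternative and terminal pathways, 7 were under 10 counts in every library and 4 were tested. Of these, 3 were called lower, against 4.41% of all tested genes: C3, CFB and C5. C3 and CFB are among the 9 genes above, so C5 was the only call outside them. C5, the precursor of the anaphylatoxin C5a, had 129 and 119 CPM in the controls and 43.0 and 60.7 CPM with USP12, a log2 change of -1.26 ± 0.38 (standard error; adjusted p = 0.426). Its call was lost without USP12 replicate 1 (-1.03) or USP12 replicate 2 (-1.53). The fourth, CFD, the protease that cuts factor B, was at -0.92 and was not called.

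Of 18 complement regulators, 12 were tested, each with a lower point estimate, as were 8165 of all 15222 tested genes. Against control replicate 2 alone, 8 of the 12 were lower. Both USP12 libraries lay below both controls for 7 of the 12, against 17% of all tested genes. By the rule for calls, 3 were called lower, against 4.41% of all tested genes. C4BPA, which holds C4b in check, had 64.7 and 82.2 CPM in the controls and 10.3 and 8.31 CPM with USP12 (log2 fold change -2.98, standard error 0.43, adjusted p = 0.165). CD55, which breaks up convertases on the cell surface, had 178 and 194 CPM in the controls and 59.7 and 50.3 CPM with USP12 (-1.76, standard error 0.35, adjusted p = 0.241). VTN, the gene of vitronectin, had 35.1 and 9.14 CPM in the controls and 2.52 and 2.84 CPM with USP12 (-3.04, standard error 0.75, adjusted p = 0.320). VTN was at -1.77 without control replicate 1 and at -3.70 without control replicate 2. SARM1 overlaps VTN on the opposite strand, with 120 and 42 counts in the controls and 23 and 56 counts with USP12. Whether counting used strand is not stated, so their reads cannot be fully told apart. The call for CD55 was lost without USP12 replicate 1 (-1.89) or USP12 replicate 2 (-1.64). CLU, which encodes clusterin, an inhibitor of the membrane attack complex, was not called at -0.89. CLU would be called without control replicate 2 (-1.29), and was at -0.29 without control replicate 1. None of the 5 tested receptor genes was called (0 lower and 0 higher of 5), with 3 lower and 2 higher point estimates. C1QBP was at -0.22, ITGB2 at -0.88 and ITGAM at -1.79. ITGAM did pass without a filter (-1.76) and with the DESeq2 Wald test (-1.82). It was at -2.49 without control replicate 2 and at -0.32 without control replicate 1.

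Of 24 coagulation factors and inhibitors, 12 were tested, 7 with a lower and 5 with a higher point estimate. The list had a median log2 fold change of -0.18, beside -0.06 over all genes tested. Of the 12, 1 was called lower and 0 higher, where 4.41% of all tested genes were called lower and 2.92% higher. F5, the gene of factor V, was the 1 called lower, from 5.68 and 8.70 CPM to 1.01 and 1.18 CPM (log2 fold change -2.71, standard error 0.61, adjusted p = 0.296). It was lost without USP12 replicate 1 (-2.60) or USP12 replicate 2 (-2.83). TFPI, the inhibitor of tissue factor, was at -0.28 and FGL1, a relative of fibrinogen, at -0.80, neither of them called. SERPINF2 had 48.0 and 12.7 CPM in the controls and 23.4 and 10.3 CPM with USP12, so that its groups overlapped. It passed without control replicate 2 (-1.497) and turned to 0.41 without control replicate 1.

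Among 19 positive acute-phase genes, 9 were under 10 counts in every library, including CRP, HP and ORM2, and 9 were tested. Of these, 6 were called lower and 0 higher, against 4.41% and 2.92% of all tested genes. This list too was chosen with earlier results known, so the shares are a description only. The median log2 fold change of the 9 was -2.33. Setting SAA1 and SAA2 at their bounds could not move this median, because both bounds stay below the middle value. LCN2, the iron-siderophore binding protein lipocalin-2, had 1475 and 225 CPM in the controls and 12.2 and 9.004 CPM with USP12 (-6.32, standard error 1.01, adjusted p = 0.182). CP, the gene of ceruloplasmin, had 410 and 350 CPM in the controls and 76.1 and 74.9 CPM with USP12 (-2.33, standard error 0.34, adjusted p = 0.172). SERPINA3, the gene of α1-antichymotrypsin, had 165 and 17.8 CPM in the controls and 1.58 and 1.45 CPM with USP12 (-5.90, standard error 1.16, adjusted p = 0.231). Without control replicate 1 the change was -4.40 for LCN2 and -3.54 for SERPINA3, and without control replicate 2 it was -7.10 and -6.74. A second entry named SERPINA3 overlaps SERPINA3 on the same strand, so fragments may be split between them. HPS3 overlaps CP on the opposite strand, with 413 and 796 counts in the controls and 586 and 661 counts with USP12. The reads of CP and HPS3 cannot be fully told apart where strand was not used. SAA1 and SAA2, among the 6 called, passed the filter on low counts only through the control libraries. SAA1 had 273 and 24 counts in the controls and 0 in both USP12 libraries. Against 3 counts over the USP12 group it was at least 89.7-fold lower, and SAA2 was at least 36.6-fold lower. Against control replicate 2 alone these limits were 12.6-fold and 7.85-fold, and against control replicate 1 alone 195-fold and 75.7-fold, though the near-identical SAA1 and SAA2 can share reads. LRG1 was called lower as well (-1.66), a call lost without USP12 replicate 1 (-1.55) or USP12 replicate 2 (-1.78). The median log2 difference between control replicates 1 and 2 over the 9 tested positive acute-phase genes was 2.71. Of 17 negative acute-phase and other liver plasma protein genes, 6 were tested and AHSG was the 1 called. Over all tested genes, 4.41% were called lower and 2.92% higher. AHSG is among the 9 genes above and passed the filter on low counts only through the control libraries. APOH (0.05), AMBP (0.20) and ITIH2 (1.15) were not called, and the median was 0.12. ITIH2 passed without control replicate 2 (1.64).

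**Figure D5:**
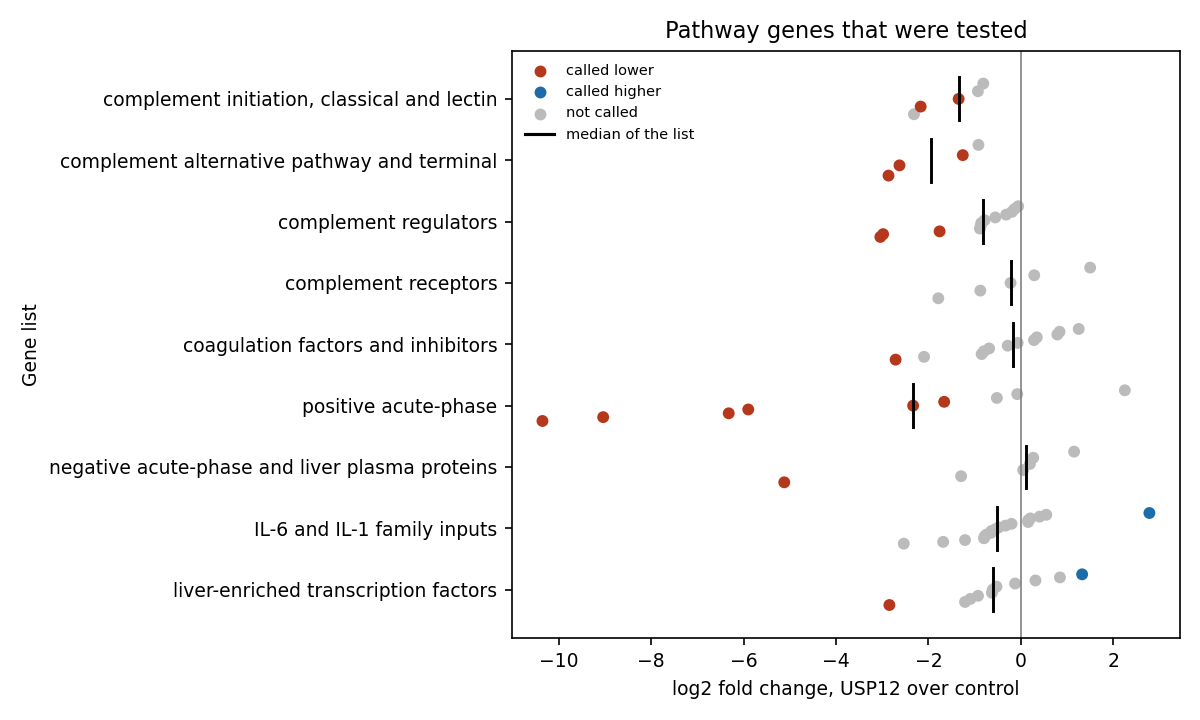
Log2 fold change of USP12 over control for the tested genes of 9 pathway lists, with 1 point per gene and a black line at the median of each list. The positive acute-phase list reached furthest down (median -2.33), and the medians of the coagulation, receptor and negative acute-phase lists lay near 0. C1R, C1S, C3, CFB and AHSG are plotted in the list of their pathway, and SAA1 and SAA2 are drawn at fitted values that depend on the prior count.

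Of 20 genes of the interleukin-6 and interleukin-1 families and their pathway, 18 were tested. Of these, 0 were called lower, beside 4.41% of all tested genes, and 1 was called higher, beside 2.92%. That gene was IL11, from 4.99 and 1.94 CPM to 24.1 and 23.4 CPM (log2 fold change 2.78, standard error 0.61, adjusted p = 0.280). Without control replicate 1 the log2 fold change of IL11 was 3.61, and without control replicate 2 it was 2.26. STAT3 (0.16), JAK1 (0.55) and the oncostatin M receptor gene OSMR (0.21) were not called. IL6 had 23 and 10 counts in the controls and 0 and 10 counts with USP12. CEBPA had a log2 fold change of -1.21 and CEBPB of -0.48, neither called. The log2 difference of CEBPA was -1.73 against control replicate 1 alone and -0.37 against control replicate 2 alone.

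Of 13 liver-enriched transcription factors, 11 were tested, with 1 called in each direction. Over all tested genes, 4.41% were called lower and 2.92% higher. FOXA3 had 71.2 and 42.0 CPM in the controls and 9.93 and 5.82 CPM with USP12 (log2 fold change -2.84, standard error 0.53, adjusted p = 0.210). NR5A2 had 9.08 and 14.02 CPM in the controls and 27.0 and 31.0 CPM with USP12 (1.33, standard error 0.46, adjusted p = 0.527), a call lost without USP12 replicate 1 (1.42) or USP12 replicate 2 (1.22). HNF4A (-0.61), FOXA1 (-0.63) and FOXA2 (0.32) were not called.

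The genes flanking the 9 were compared by position. Of the 24 nearest tested genes, 2 on each side of each of 6 loci, 3 were called lower and 0 higher, with a median log2 fold change of -0.34. Over all tested genes, 4.41% were called lower and 2.92% higher, and the median was -0.06. Beside the fibrinogen cluster, PLRG1 was at 0.31 and MAP9 at -0.52, and neither was called. C1RL, a relative of C1R that overlaps it, was at 0.52 with 1035 and 1381 counts in the controls and 1641 and 1490 counts with USP12. The 3 called lower were LPCAT3, TNFSF9 on the left of C3, and the second entry named SERPINA3 near SERPINA1.

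Over the 4 libraries, the genes whose centred log2 CPM came closest to C3 by Euclidean distance were XXbac-B444P24.10 (0.164), the chemokine gene CXCL2 (0.211) and the potassium channel gene KCNK5 (0.253). CXCL2 had 34.1 and 12.4 CPM in the controls and 3.67 and 3.05 CPM with USP12. The mean of the 3 fibrinogen genes was most like NRSN2 (0.135), XBP1 (0.149) and PRR15 (0.150). XBP1, a transcription factor of the secretory pathway, had 261 and 314 CPM in the controls and 113 and 101 CPM with USP12. For comparison, the members themselves were at 0.310 (FGB), 0.596 (FGG) and 0.667 (FGA) from their own mean.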

How the data were processed

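The deposited values were raw counts, 1 file per library. Per the labels and the methods, the authors trimmed adaptors and filtered rRNA with Seqtk, aligned to GRCh38 with HISAT2 2.0.4, and took fragments with a unique alignment per gene with StringTie 1.3.0. Which annotation was used, and whether strand was, is not given in the sources used here. Fits used R 4.3.3 and edgeR 4.0.16 (TMM, filterByExpr, quasi-likelihood test, Benjamini-Hochberg adjustment over 15222 genes), without a replicate block. Log2 CPM used a prior count of 2, and standard errors are the fold change over the square root of F. Positions and lengths came from GENCODE release 44 by gene identifier (99.2% of tested genes matched). The fits were tested on simulated data. Named genes were the 9 members, the 3 most abundant and the called genes of each list, and the 3 genes nearest in pattern, though some of these are not reported here. Genes with values outside that rule (C2, CFD, IL6, CEBPA, CEBPB, HNF4A, the flanking genes) were chosen after their values were seen. Members and lists were chosen with earlier results of these data known. Alternatives were DESeq2 1.42.0 size factors and its Wald test, the edgeR exact test, other filters, a replicate block, and leaving out each library.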

Additional observations from a re-analysis of the deposited data

How the results depend on the processing

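The 9 genes were lower under each of the alternatives that fitted them. The number called lower was 7 with DESeq2's size factors, without a filter, with the DESeq2 Wald test, the edgeR exact test and the replicate block, and 6 with at least 10 counts in every library, where AHSG was not fitted. Leaving out 1 library gave from 3 to 8 called genes, the fewest without USP12 replicate 2, and medians from -2.27 to -1.51, the last without control replicate 1. In those fits the lone library of a group was assumed to vary like the others. Genes with an adjusted p under 0.05 numbered 0 with DESeq2's size factors and with at least 10 counts in every library, 528 without a filter, 406 with the DESeq2 Wald test, 404 with the replicate block and 429 with edgeR's exact test, and from 36 to 5017 when 1 library was left out. By p and fold, the unfiltered table gave 1173 lower and 688 higher genes in place of 671 and 445, and leaving out 1 library gave from 274 to 2049 lower and from 171 to 2371 higher genes. Without a filter the prior degrees of freedom of the fit were infinite, against 4.15 in the main fit. The cause of these shifts was not tested.

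The groups share replicate numbers 1 and 2, and libraries with the same number deviated together weakly (correlation across genes 0.152), so the numbers were not taken as a pairing. With the replicate block, whose prior degrees of freedom were infinite against 4.15 without it, 5 of the 9 genes had an adjusted p under 0.05, with FGG at -2.15 (adjusted p = 0.00591). Among the other named genes, the direction turned for 4 when 1 library was left out: C1QBP ranged from -0.44 to 0.048, SERPINF2 from -1.56 to 0.41, APOH from -0.22 to 0.39 and AMBP from -0.22 to 0.79. C1QBP, SERPINF2 and APOH turned without control replicate 1, APOH also without USP12 replicate 1 (-0.02), and AMBP without control replicate 2. COLEC11 and LRG1 were also not called with the replicate block (-2.17 and -1.65) and the DESeq2 Wald test (-2.21 and -1.69). Depth limits AHSG, SAA1 and SAA2, which had 0 to 2 counts in the USP12 libraries, and SERPINA1, which had at most 16.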
